A study of Mus musculus with 37 samples.

Results

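CTCF loops that join the promoters of different protein-coding genes were mapped in excitatory neurons of the mouse hippocampus, and the genes at their ends were followed in control mice and in mice that lost Kdm1a. A loop was taken when its anchor midpoints lay 25 to 500 kb apart and both anchors reached to within 2.5 kb of a transcription start site (TSS) in the GENCODE M21 annotation, with a different protein-coding gene at each end. This gave 808 loops of 27786 in all and of 20556 in that range of spans. Their ends held 1253 genes, which formed 944 gene pairs.

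The study removed Kdm1a, a demethylase of lysine 4 of histone H3, from adult forebrain neurons and followed chromatin, transcription and genome folding. Kdm1a-ifKO mice carried Camk2a-creERT2 and a Kdm1a f/f allele with floxed exons 5 and 6, and received tamoxifen at 8 weeks of age. Controls were littermates without the recombinase that received tamoxifen as well. RNA came from the whole hippocampus of male mice in 3 libraries per genotype, although the recombinase is active only in excitatory forebrain neurons. In such bulk RNA, fewer cells of a type and less RNA per cell cannot be told apart. The loops came from a single library of CTCF ChIA-PET, which ligates and sequences DNA ends held together at CTCF. Its nuclei were sorted from 12-week-old male mice with Camk2a-creERT2 and the nuclear envelope tag CAG-Sun1/sfGFP, about a month after tamoxifen. The strength of a loop is its number of paired-end tags (PETs) between both anchors, and loops under 3 PETs are absent from the file. All loops come from animals with intact Kdm1a, of another cross than the RNA controls. They show which promoters were joined in these animals and not whether a loop changed.

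The control RNA libraries held 19160327, 19088998 and 18985542 counts and the Kdm1a-ifKO libraries 19469947, 19445743 and 19370926. Kdm1a (ENSMUSG00000036940, chr4:136550540-136602723 in GRCm38) had 1521, 1545 and 1481 counts in controls and 764, 726 and 748 in Kdm1a-ifKOs, so every library matched its label. The level went from 80.1 ± 0.897 to 38.2 ± 1.23 in library-scaled counts (CPM; SD, n = 3), a log2 fold change (log2FC) of -1.07 (standard error 0.0559, edgeR adjusted p = 6.24e-08). Luzp1 (opposite strand) and Gm12987 (same strand) overlap Kdm1a, whose TSS was not at a promoter-to-promoter loop. All 8 markers of excitatory neurons were expressed, with summed levels of 7140, 6870 and 6840 CPM in controls and 7397, 6683 and 7303 CPM in Kdm1a-ifKOs, Camk2a being the most abundant.

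CTCF is a zinc finger protein that binds a long, asymmetric DNA motif and stops the cohesin ring as it extrudes chromatin. A loop is held best when the motifs at both ends point towards each other. Many CTCF sites lie at promoters, where loops can bring the start sites of separate genes together. Kdm1a acts in repressor complexes, among them one with CoREST proteins that also holds Hmg20b.

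A minority of the anchors held a match to the CTCF motif. A 14-base CTCF core consensus was searched on both strands of the reference (RefSeq GRCm38.p6), allowing 1 mismatch. It was found in 37.3% of the 1616 anchors of promoter-to-promoter loops (603 anchors), in 48.2% of 39496 anchors of the other loops of 25 to 500 kb, and in 6.76% of 21938 windows of 1416 bases centred on protein-coding start sites. Anchors differ in width, so the comparison was repeated on anchors whose width was within a factor of 1.5 of these windows, shorter or longer. There the shares were 33.6% of 876 anchors and 45.9% of 21990. A match describes these letters only. The sequences that follow come from 5 loops chosen for the results they carry. Each is read 5′ to 3′ on the strand that holds the match, with the 14 positions of the match in capitals. Those at Ppy, Tjp3 and Rasal1 match in full, and those at Ndufa4l2, Nxph4, Nags, Hmg20b, Dtx1 and Prph hold 1 mismatch. The Ndufa4l2 to Nxph4 loop has 191 PETs and is among the 10 strongest. The Nags to Ppy loop (93 PETs) joins a gene that rose from near 0 to a partner with 1 count over all 6 libraries. In the Tjp3 to Hmg20b and the Rasal1 to Dtx1 loop (7 PETs each), both genes rose. The left anchors carry the match on the plus strand and the right anchors on the minus strand, so these 4 pairs face each other. In the Prph to C1ql4 loop (3 PETs), the match at Prph lies on the minus strand, and no match was found at the C1ql4 anchor.
Ndufa4l2 anchor, intergenic, chr10:127509109-127509168, plus strand: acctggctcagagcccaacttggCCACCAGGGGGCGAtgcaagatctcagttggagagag
Nxph4 anchor, intergenic, chr10:127536806-127536865, minus strand: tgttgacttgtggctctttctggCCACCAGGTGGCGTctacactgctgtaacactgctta
Ppy anchor, intergenic, chr11:102102671-102102730, plus strand: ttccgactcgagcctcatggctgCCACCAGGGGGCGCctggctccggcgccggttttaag
Nags anchor, intergenic, chr11:102140665-102140724, minus strand: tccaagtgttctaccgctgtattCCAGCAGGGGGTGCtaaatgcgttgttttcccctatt
Tjp3 anchor, intron of Tjp3, chr10:81289440-81289499, plus strand: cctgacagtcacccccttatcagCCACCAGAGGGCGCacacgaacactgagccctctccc
Hmg20b anchor, intergenic, chr10:81350896-81350955, minus strand: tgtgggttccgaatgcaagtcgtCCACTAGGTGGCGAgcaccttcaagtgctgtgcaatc
Rasal1 anchor, intron of Rasal1, chr5:120649116-120649175, plus strand: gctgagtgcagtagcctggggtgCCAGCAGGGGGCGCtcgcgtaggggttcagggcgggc
Dtx1 anchor, intergenic, chr5:120714475-120714534, minus strand: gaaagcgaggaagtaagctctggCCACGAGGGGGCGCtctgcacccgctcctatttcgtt
Prph anchor, intron of Prph, chr15:99056532-99056591, minus strand: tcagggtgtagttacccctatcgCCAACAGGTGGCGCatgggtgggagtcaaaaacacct

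Measured from the TSS in the direction of the gene, these windows are centred at -5828 bases for Ndufa4l2, -2276 for Nxph4, -1382 for Ppy and -4818 for Nags. The others are centred at 2112 bases for Tjp3, -446 for Hmg20b, 334 for Rasal1, -2578 for Dtx1 and 1388 for Prph. The matched letters thus lie on either side of the start sites. Over all promoter-to-promoter loops, 127 had a match with a single best orientation at both anchors. Of these, 86 were convergent (67.7%, Wilson 95% interval 59.2 to 75.2), 36 tandem and 5 divergent. In the other loops of 25 to 500 kb the convergent share was 66.8% (3070 of 4596), inside that interval. The share followed loop strength in both sets. Among promoter-to-promoter loops, 6 of 16 with 3 to 4 PETs were convergent, 29 of 43 with 5 to 9, 35 of 48 with 10 to 49 (72.9%) and 16 of 20 with 50 or more (80%). In the other loops these shares were 46%, 61.5%, 81.2% and 81.4%. Joining promoters therefore did not go with another orientation of the motifs than loops in general had.

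Most promoter-to-promoter loops were weak and a few were very strong. The median was 5 PETs (quartiles 3 and 10), the same as in the 5946 loops with 1 promoter anchor and in the 13802 with none. Exactly 3 PETs were counted in 232 loops (28.7%, against 30.4% and 30.5%), and at least 10 in 211 (26.1%, against 26% and 26.3%). The upper tail was longer: 45 loops (5.57%) held at least 50 PETs, against 4.88% and 3.81%, and 26 (3.22%) at least 100, against 1.73% and 0.935%. Those 45 loops carried 49.3% of the 11794 PETs of the set, and the 10 strongest carried 20.8%. With 1 library, these shares have no replicate check.

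**Figure D1:**
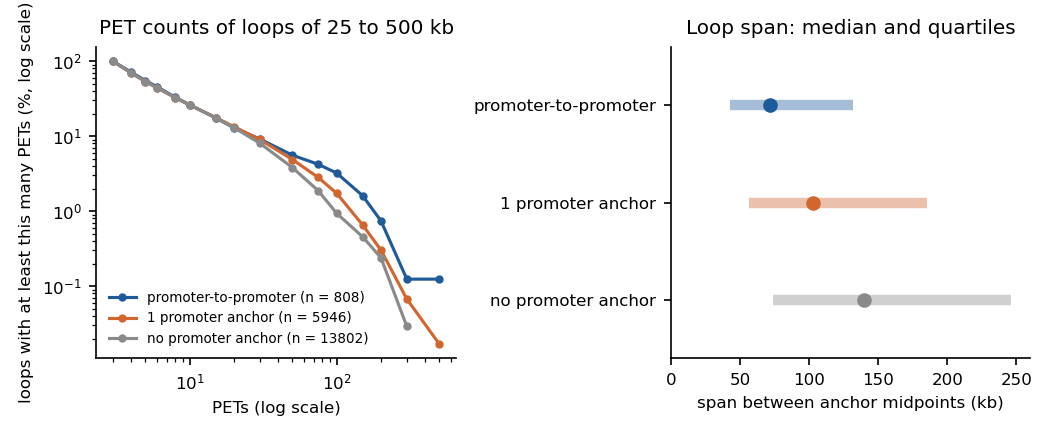
Left, the share of loops of 25 to 500 kb with at least a given number of PETs (both axes logarithmic) for loops with promoters at both anchors, at 1 anchor and at none; right, median and quartiles of the span between anchor midpoints. The 3 curves lie together up to about 30 PETs and part above 50 PETs (5.57%, 4.88% and 3.81%), while the median span falls from 140 kb without promoters to 72 kb between promoters.

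Promoter-to-promoter loops were short, with a median span of 72 kb (quartiles 42.5 and 132 kb) against 103 kb and 140 kb. Members ran from 25.1 to 484 kb. A further 310 loops between promoters lay under 25 kb and 26 over 500 kb, the nearest of these at 504 kb. Between 25 and 100 kb the median was 6 PETs over 517 members, against 5 for both other classes. From 100 to 250 kb it was 4 PETs over 236 members, against 5 and 5, and from 250 to 500 kb 4 over 55 members, against 4 and 4. Wider anchors hold more PETs and also reach a start site more easily: across members the rank correlation of PETs with mean anchor width was 0.87 (n = 808 loops, not independent, description only). When distance to the TSS was taken from the anchor midpoint, which leaves width out, 556 loops remained with a median of 4 PETs and a mean of 7.79, against medians of 5 and means of 10.7 and 12.4 in the other classes. The longer upper tail was thus not seen with that definition, where 1.44% of the loops held at least 50 PETs against 3.69% and 4.47%.

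The strongest loop, with 553 PETs over 52.4 kb, joined Sema7a, a membrane-bound semaphorin, to Cyp11a1, the side-chain cleavage enzyme of steroid synthesis. Next came Ngdn with Zfhx2, Thtpa and Ap1g2 (294 PETs), Lrrc10b with Ppp1r32 (251) and the water channel Aqp5 with the acid-sensing channel Asic1 (216). Pmf1 and the semaphorin Sema4a shared 208 PETs, and Rac3 and Dcxr with Rfng and Gps1 shared 207. Ndufa4l2 and the neurexin ligand Nxph4 followed with 191 PETs, the sialate enzyme Npl with Rgs16 with 185, Tldc1 and Cotl1 with 183, and Lrrc74b and the ATP-gated channel P2rx6 with Smpd4 with 160. Several of these join genes of unequal RNA level in the hippocampus. In controls Sema7a stood at 178 TPM, counts scaled to transcript length and library, and Cyp11a1 at 3.1, Lrrc10b at 110 and Ppp1r32 at 5.33, Asic1 at 30.3 and Aqp5 at 0.269, and Cotl1 at 230 and Tldc1 at 14.1.

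Of the 808 loops, 611 had exactly 1 gene at each anchor, and in 125 (15.5%) a TSS lay inside both anchors. Most genes had 1 looped partner (801 genes), 329 had 2 and 123 had 3 or more. The most connected start sites, with 7 partners each, belonged to Pip5k1c, a lipid kinase of synapses, and to Tjp3, a tight junction scaffold. These neighbours on chromosome 10 share an anchor and their 7 partners Atcay, Cactin, Gipc3, Gm48552, Hmg20b, Smim24 and Zfr2, yet stood at 293 ± 22.4 and 1.43 ± 0.22 TPM (SD, n = 3). The transcription factor gene Sox15 and the glutathione transferase gene Gstp2 had 6 partners each, at 0.246 and 0 TPM. Gstp2 has near-identical copies, so its counts are uncertain. Further genes tied with 5 partners and are left unnamed. Loops were spread unevenly over the chromosomes. Chromosome 11 held 117 (14.5%, against 9.69% of all loops of 25 to 500 kb and 7.47% of protein-coding genes), chromosome 7 held 81 (10%, against 8.54% and 9.22%), chromosome 8 held 66 (8.17%, against 4.75% and 4.74%) and chromosome 19 held 57 (7.05%, against 3.76% and 3.28%). Chromosome 10 also held 57 (7.05%, against 4.67% and 4.65%), and chromosomes 9, 15 and 17 exceeded their share of genes too. Chromosomes 4 and 5 held less than that share, with 4.46% of the loops against 6.05% and 3.59% against 5.74%. So did chromosomes 1, 2, 3, 6, 12, 13, 14, 16, 18 and X, among them chromosome 13 with 1.36% against 3.82%. Chromosome 18 held 7, and of the 41 loops of that span on chromosome X none joined promoters.

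Genes looped to another promoter were mostly expressed in the control hippocampus. Of the 1253, 1238 were in the count table. Their median was 20.3 TPM, against 6.7 TPM over all 21695 protein-coding genes, and 850 (68.7%) reached 5 TPM, against 52.5%. Under 1 TPM lay 17.5%, against 35.9%. The 2132 genes with only other loops of 25 to 500 kb at the TSS were alike, with 72.5% at 5 TPM or more, while of the 18325 genes without such a loop 49.1% reached it. The share was thus higher in both groups with a CTCF loop at the start site than in genes without one. Median gene length was 11.6 kb when looped to another promoter, 21.9 kb with only other loops and 17.8 kb without. The part of gene length and gene density in these shares was not tested. Among genes looped to another promoter the share fell along loop strength. Of those whose strongest loop had 3 to 4 PETs 72.9% reached 5 TPM, 71.2% with 5 to 9, 63.1% with 10 to 49 and 58.3% with 50 or more.

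Pairs showed the same. Both genes reached 5 TPM in 432 of the 918 looped pairs in the count table (47.1%), against 30.3% of all 196078 pairs of protein-coding genes 25 to 500 kb apart. At 25 to 100 kb the shares were 50.6% and 32.1%, at 100 to 250 kb 42.4% and 30.7%, and at 250 to 500 kb 39.7% and 29.4%. However, among 2421 pairs at these distances that were not looped to each other but whose genes were each looped to some other promoter, the share was 50.2%. Their median distance was 236 kb, against 69.3 kb for looped pairs, so that comparison is not matched for distance. One gene at 5 TPM or more with a partner under 1 TPM made up 20.9% of looped pairs (192 pairs), against 26%. Both genes under 1 TPM were found in 4.9%, against 23.1%. Across looped pairs the levels of both genes hardly went together, with a rank correlation of 0.102 (n = 918 pairs, which share genes) against 0.351 over all pairs and 0.0111 over the pairs looped elsewhere. A symbol root, as in Gstm1 and Gstm6, was shared by 2.29% of looped pairs, 12.1% of all pairs and 0.372% of those looped elsewhere, and its part in these correlations was not tested. In direction of transcription looped pairs resembled the rest, with 49.2% in tandem, 24.2% facing and 26.6% back to back, against 52%, 23.9% and 24.1%.

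**Figure D2:**
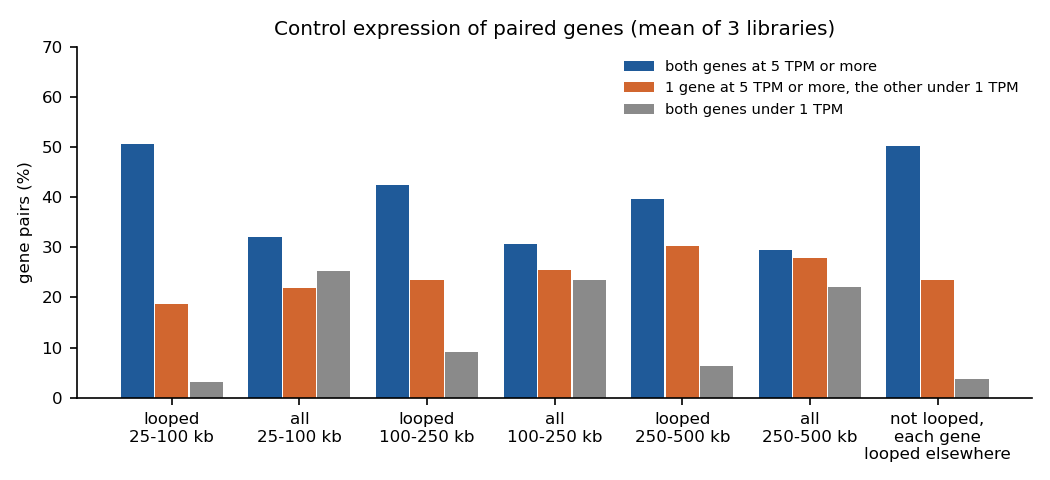
Share of gene pairs (vertical axis, percent) in which both genes reached 5 TPM in controls, 1 reached 5 TPM and the other was under 1 TPM, or both were under 1 TPM, for looped pairs and for all pairs in 3 ranges of distance between start sites, and for pairs not looped to each other whose genes were each looped elsewhere. Looped pairs stand above all pairs at each distance (50.6% against 32.1% at 25 to 100 kb). The pairs looped elsewhere (50.2%) are drawn over all distances, with a median of 236 kb.

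After loss of Kdm1a, looped genes were more often higher and less often lower than protein-coding genes as a whole. Of the 1048 that passed the filter on low counts, 112 rose (10.7%, against 6.73% of the 14428 protein-coding genes tested) at an edgeR adjusted p under 0.05. With a log2FC over 1 there were 30 (2.86%, against 1.48%), while 7 fell (0.668%, against 3.15%). The filter favours weakly expressed genes with counts in Kdm1a-ifKOs, and 13 of those 30 lay under 1 TPM in controls. Among tested genes of 1 to 5 TPM 13 of 158 looped genes had a log2FC over 1 (8.23%, against 3.34%), and of 5 to 20 TPM 3 of 227 (1.32%, against 0.774%). The median log2FC was 0.0564, against -0.001. It was also 0.0564 when 3 genes with 2 counts each over all controls, C1ql4, Nags and Nxnl1, were set at the lower end of their counting interval. Those lower ends stay far above the median, so this setting could not move it. Genes with only other loops lay between, with 8.8% higher and 2.23% lower, and genes without a loop had 6.04% and 3.52%. The share of higher genes was alike over loop strength, with 10.1%, 11%, 11.3% and 10.3% in the 4 PET classes from weakest to strongest. With a log2FC over 1 the shares were 2.59%, 2.19%, 2.34% and 8.05%, the last being 7 of 87 genes. Without Kdm1a-ifKO replicate 3 the rising looped genes numbered 66 (6.26%, against 4.25% of all tested), and without Kdm1a-ifKO replicate 1 they numbered 72 (6.82%, against 4.88%). The falling genes numbered 4 without control replicate 1 (0.38%, against 3.85% of all) and 13 without Kdm1a-ifKO replicate 2 (1.23%, against 2.7%). They numbered 2 without Kdm1a-ifKO replicate 1 (0.189%, against 1.06%) and 1 without Kdm1a-ifKO replicate 3 (0.0949%, against 0.894%), so calls became fewer over all genes too.

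Looped genes lie in gene-dense regions and are short, and the calls followed both. A looped gene had a median of 16 other protein-coding start sites within 250 kb, against 8, and a median length of 11.6 kb, against 17.6 kb. Among genes with 12 or more such neighbours, 12.5% of looped genes and 9.61% of all genes rose, and 0.561% and 0.69% fell. With 6 to 11 neighbours 7.31% and 6.5% rose, and with up to 5 neighbours 5.33% and 4.48%. The shares of lower genes were thus alike where neighbours were many. With fewer neighbours they rest on 1 of 260 looped genes (0.385%, against 2.28%, with 6 to 11) and 2 of 75 (2.67%, against 5.9%, with up to 5). By length, 11.8% of looped genes and 8.56% of all genes rose among the shortest (up to 14.7 kb), 10.8% and 6.55% in the middle class, and 5.67% and 5.07% among the longest (over 44.8 kb). The part of gene density and length in the difference was not tested. By level in controls, 29 of 227 tested looped genes of 5 to 20 TPM rose (12.8%, against 7.38%) and 50 of 622 at 20 TPM or more (8.04%, against 5.42%). Under 1 TPM only 41 of 217 looped genes passed the filter on low counts, so their share is not compared.

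**Figure D3:**
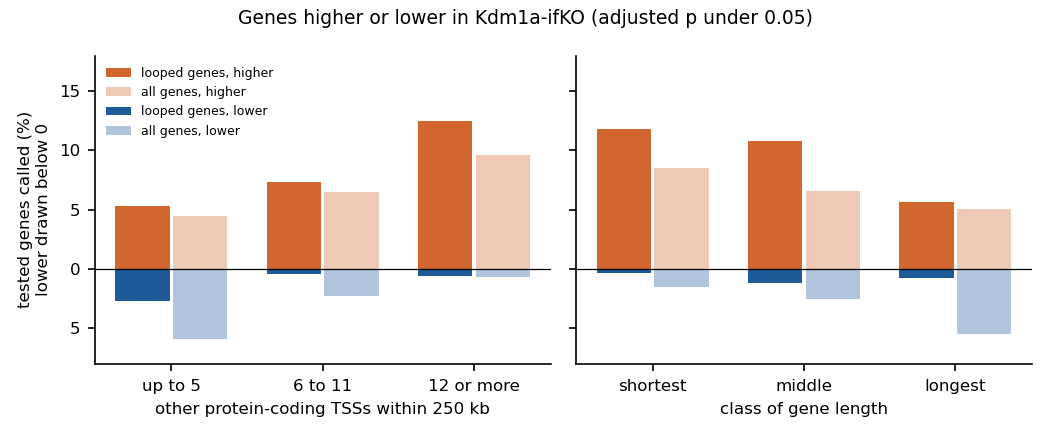
Share of tested genes (percent) higher (above 0) or lower (drawn below 0) in Kdm1a-ifKO at an edgeR adjusted p under 0.05, for looped genes (dark) and all protein-coding genes (pale), by number of other protein-coding start sites within 250 kb (left) and by class of gene length (right). Higher calls grow with neighbours in both sets, from 5.33% to 12.5% in looped genes and from 4.48% to 9.61% in all genes.

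Markers of some other cells moved as well. None of 8 oligodendrocyte, 8 endothelial and 6 ependymal markers was called, with median log2FC values of 0.03, 0.02 and -0.22 over these lists. Of 8 astrocyte markers 3 rose (Slc1a3, S100b and Aldoc; 37.5%, against 6.73% of protein-coding genes), and their summed level was 5656, 5475 and 6089 CPM in controls and 6118, 6307 and 6439 in Kdm1a-ifKOs, with Slc1a2 the most abundant. Of 8 microglial markers 3 rose as well (Cx3cr1, Csf1r and Tmem119; 37.5%), with sums of 357, 335 and 366 CPM against 383, 442 and 492, Csf1r being the most abundant. Every Kdm1a-ifKO library stood above every control in both sums. Of 5 tested choroid plexus genes Kl rose and of 5 thalamic genes Prkcd (20% each, against 6.73%), with median log2FC values of 0.12 and -0.01 over these lists. The choroid plexus sum was 60.8, 36.6 and 36.9 CPM in controls and 66.7, 65.2 and 71.6 in Kdm1a-ifKOs, without overlap, with Kl the most abundant. Neurod6 of the excitatory list fell, as did Vip and Npy among 8 interneuron markers (25%, against 3.15%). Among these markers Cx3cr1, looped to Xirp1, is the only called gene at a promoter-to-promoter loop. Several of these calls lie near the threshold. That of Slc1a3 was lost without control replicate 1 or 2 or Kdm1a-ifKO replicate 1 or 3 (edgeR adjusted p up to 0.096), of S100b without control replicate 2 or Kdm1a-ifKO replicate 3 (0.0795), of Aldoc without control replicate 2 or any Kdm1a-ifKO library (0.17) and of Vip without Kdm1a-ifKO replicate 1 or 3 (0.063). Cx3cr1 lost it without control replicate 1 or 2 or Kdm1a-ifKO replicate 2 or 3 (0.105), Csf1r without any control or Kdm1a-ifKO replicate 2 or 3 (0.113) and Tmem119 without any control or Kdm1a-ifKO replicate 3 (0.12). The part of these cells in the changes of looped genes was not tested.

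Genes joined by a loop mostly did not change together. Of 670 looped pairs with both genes tested, 529 had no called gene, 131 had 1 and 10 had both, which rose in every case. These 10 are 1.49% of the pairs, against 0.785% of all tested pairs 25 to 500 kb apart and 1.45% (26 pairs) of the pairs looped elsewhere. The pairs looped elsewhere lie farther apart, at a median of 236 kb over all 2421 against 69.3 kb over all 918 looped pairs. Of the 10, those holding Ncan, Hmg20b, Dtx1, Nkpd1 or Gstm1 lost a call without Kdm1a-ifKO replicate 1, and likewise without replicate 3. Shares over other pairs are not given for these settings. The rank correlation of log2FC within looped pairs was 0.104 (n = 670 pairs, which share genes), against 0.0799 over all pairs and 0.036 over the pairs looped elsewhere. The genes of a pair differed in their genotype change in 64 of 656 looped pairs with start sites 25 to 500 kb apart (9.76%, against 7.15% of 93376 pairs and 11.5% of pairs looped elsewhere), at a limma adjusted p under 0.05. That count was 41, 42 and 42 without control replicates 1, 2 and 3, 38 without Kdm1a-ifKO replicate 1 and 40 without Kdm1a-ifKO replicate 3. The 30 genes with a log2FC over 1 had 40 tested looped partners, with a median log2FC of 0.078, of which 9 rose (22.5%). Their 644 other neighbours 25 to 500 kb away had a median of 0.061, and 68 of them rose (10.6%). Over all 112 rising genes these shares were 14.2% of 134 partners and 9.3% of 1892 other neighbours. Partners are looped genes themselves, and of all tested looped genes 10.7% rose.

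**Figure D4:**
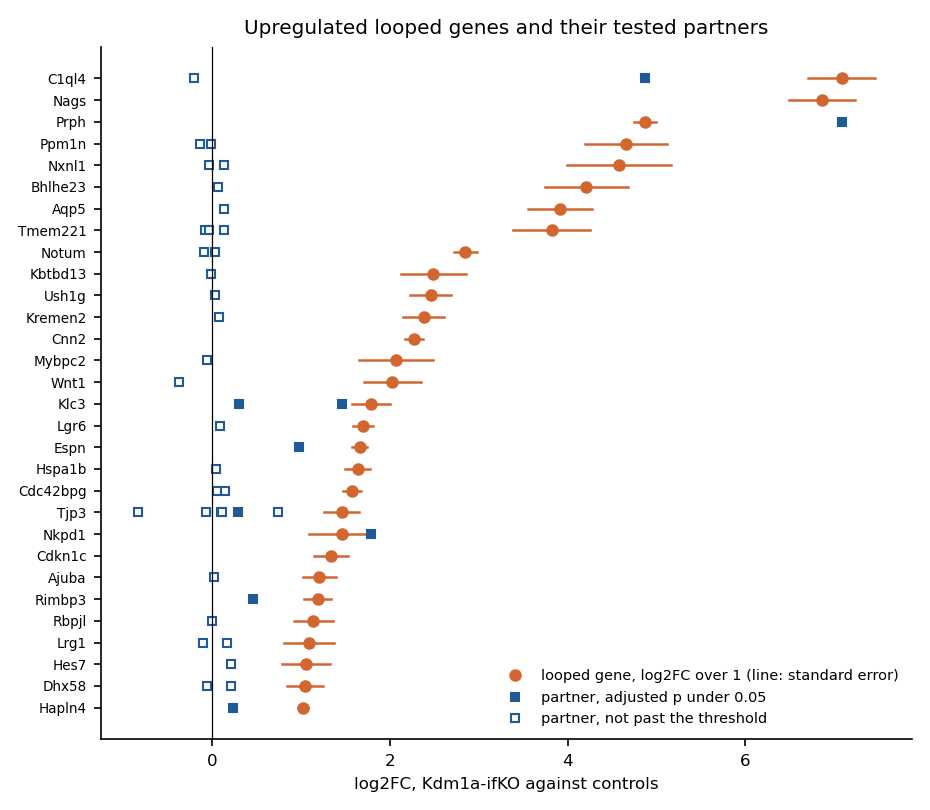
log2FC in Kdm1a-ifKO against controls (horizontal axis; lines, standard error) of the 30 looped genes with an edgeR adjusted p under 0.05 and a log2FC over 1, 1 per line, with their tested looped partners as squares, filled where the adjusted p was under 0.05. Most partners lie near 0, with a median of 0.078, and 9 of 40 are filled.

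The 30 genes belong to varied functions, and most of their looped partners passed no threshold. Notum, which removes the lipid of Wnt proteins, had 55, 46 and 37 counts in controls and 349, 335 and 348 in Kdm1a-ifKOs, without overlap. Its log2FC of 2.85 (standard error 0.132, edgeR adjusted p = 1.76e-08) differed from the 0.03 of its looped partner Lrrc45 (28 PETs; limma adjusted p = 0.000343) and from the -0.09 of Cenpx (limma adjusted p = 0.000716). Notum overlaps the antisense genes Myadml2os and Notumos. The stem cell receptor gene Lgr6 had 86, 108 and 98 counts in controls and 349, 307 and 321 in Kdm1a-ifKOs, giving a log2FC of 1.70 (standard error 0.115, edgeR adjusted p = 8.13e-07). It is looped to Ptpn7 (96 PETs, 0.0116 TPM) and to the lysosomal GTPase gene Arl8a (3 PETs), whose log2FC of 0.09 differed from it (limma adjusted p = 0.00112). Aqp5 had 5, 2 and 3 counts in controls and 45, 48 and 68 in Kdm1a-ifKOs, giving a log2FC of 3.91 (standard error 0.36, edgeR adjusted p = 1.15e-05). Its partner Asic1 had 890, 855 and 741 counts against 971, 980 and 874, with overlapping groups and a log2FC of 0.14 (standard error 0.0722, edgeR adjusted p = 0.26). Despite 216 PETs between them, Aqp5 and Asic1 differed in their change (limma adjusted p = 0.00226).

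Further genes of the 30 rose, and several of them differed from a tested looped partner. The kinase gene Cdc42bpg (log2FC 1.58) differed from Ehd1 (40 PETs, 0.15) and from the tumour suppressor gene Men1 (4 PETs, 0.06), with limma adjusted p = 0.00825 and 0.00711. Nxnl1 and Tmem221, neighbours on chromosome 8, had 2 and 5 counts over the controls and 58 and 78 over the Kdm1a-ifKOs. For Nxnl1 this is a ratio of 28.1 with an exact 95% counting interval of 7.43 to 237. Both loop to Pgls and Fam129c with 59 PETs, and both differed from Pgls (log2FC -0.03; limma adjusted p = 0.00145 and 0.00148). The hair cell gene Ush1g (2.46) differed from Mrpl58 (0.03, limma adjusted p = 0.00125) and the Dickkopf receptor gene Kremen2 (2.38) from Elob (0.08, limma adjusted p = 0.00208). Ush1g overlaps Otop2, Kremen2 overlaps 9530082P21Rik on the opposite strand, and these counts are uncertain. Ppm1n had 5, 0 and 1 counts in controls and 52, 58 and 56 in Kdm1a-ifKOs, and its log2FC of 4.66 became 6.42 without control replicate 1, which holds most of its control counts. Bhlhe23 had 0, 3 and 3 counts against 39, 34 and 48. The heat shock gene Hspa1b (log2FC 1.64) rose as well, and is uncertain because of its near-identical copy Hspa1a. Cnn2, a calponin, had 96, 116 and 113 counts in controls and 542, 582 and 497 in Kdm1a-ifKOs, while its partner Cfd was too low to be tested.

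Both genes rose in 10 pairs, and C1ql4 and Prph had the largest changes among them. Prph, which encodes the intermediate filament peripherin, had 30, 24 and 19 counts in controls and 707, 805 and 710 in Kdm1a-ifKOs, giving a log2FC of 4.87 (standard error 0.127, edgeR adjusted p = 5.99e-11). C1ql4, which encodes a secreted protein of the C1q family, had 1, 0 and 1 counts in controls and 110, 98 and 123 in Kdm1a-ifKOs, a ratio of 160 with an exact 95% counting interval of 44 to 1329 (edgeR adjusted p = 7.3e-08). The groups do not overlap for either gene. Their start sites face each other 32.6 kb apart and share 3 PETs, the lowest number kept, and their changes did not differ at the threshold (limma adjusted p = 0.0928). C1ql4 is also looped with 3 PETs to Rhebl1, 193 kb away, whose log2FC of -0.20 differed from it (limma adjusted p = 0.000412).

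The strongest loop between 2 rising genes joined Rimbp3, known from spermatids, and Tmem191c with 138 PETs. Rimbp3 had 71, 69 and 86 counts in controls and 194, 192 and 146 in Kdm1a-ifKOs, giving a log2FC of 1.19 (standard error 0.155, edgeR adjusted p = 0.000313). Tmem191c had 1552, 1470 and 1390 counts against 2169, 2023 and 2083, a log2FC of 0.46 (standard error 0.0558, edgeR adjusted p = 0.00015). Neither gene's groups overlap, and the difference between both changes had a limma adjusted p of 0.0676. Tmem191c overlaps Pi4ka on the opposite strand.

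A pair of perineuronal net genes was joined with 8 PETs. Hapln4, a link protein between hyaluronan and proteoglycans, had 2738, 2560 and 2594 counts in controls and 5695, 5181 and 5647 in Kdm1a-ifKOs, giving a log2FC of 1.02 (standard error 0.0563, edgeR adjusted p = 9.39e-08). Ncan, the proteoglycan neurocan, had 4913, 4556 and 4044 counts against 5355, 5480 and 5581, a log2FC of 0.24 (standard error 0.0605, edgeR adjusted p = 0.0283). All Kdm1a-ifKO libraries were above all controls for both genes, and Hapln4 rose more than Ncan (difference 0.78 in log2, limma adjusted p = 0.00791). The call of Ncan was lost without control replicate 2 or any of the Kdm1a-ifKO libraries, with adjusted p-values up to 0.137. No match to the CTCF core consensus was found at either anchor.

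Members of the Kdm1a complex itself lay at such loops. Hmg20b had 300, 305 and 273 counts in controls and 383, 354 and 369 in Kdm1a-ifKOs, giving a log2FC of 0.29 (standard error 0.0814, edgeR adjusted p = 0.0444). Its partner Tjp3 (7 PETs) had 30, 23 and 23 counts against 69, 69 and 78, a log2FC of 1.46 (standard error 0.198, edgeR adjusted p = 0.000424), and overlaps Apba3 on the opposite strand. Tjp3 rose more than Hmg20b (limma adjusted p = 0.00527) and more than Cactin, to which it is looped with 110 PETs (log2FC 0.10, limma adjusted p = 0.00345). With any single library left out the call of Hmg20b was lost, with adjusted p-values up to 0.147. The CoREST gene Rcor2 had 276, 279 and 253 counts in controls and 489, 446 and 448 in Kdm1a-ifKOs, giving a log2FC of 0.73 (standard error 0.0804, edgeR adjusted p = 6.56e-05). Its partner 2700081O15Rik (6 PETs, 150 kb away) had 1288, 1292 and 1197 counts against 2104, 1922 and 2146, a log2FC of 0.66 (standard error 0.0597, edgeR adjusted p = 9.87e-06). It overlaps Rtn3. Rcor2 differed from its stronger partner, the kinase gene Mark2 (26 PETs, log2FC 0.10, limma adjusted p = 0.00641).

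**Figure D5:**
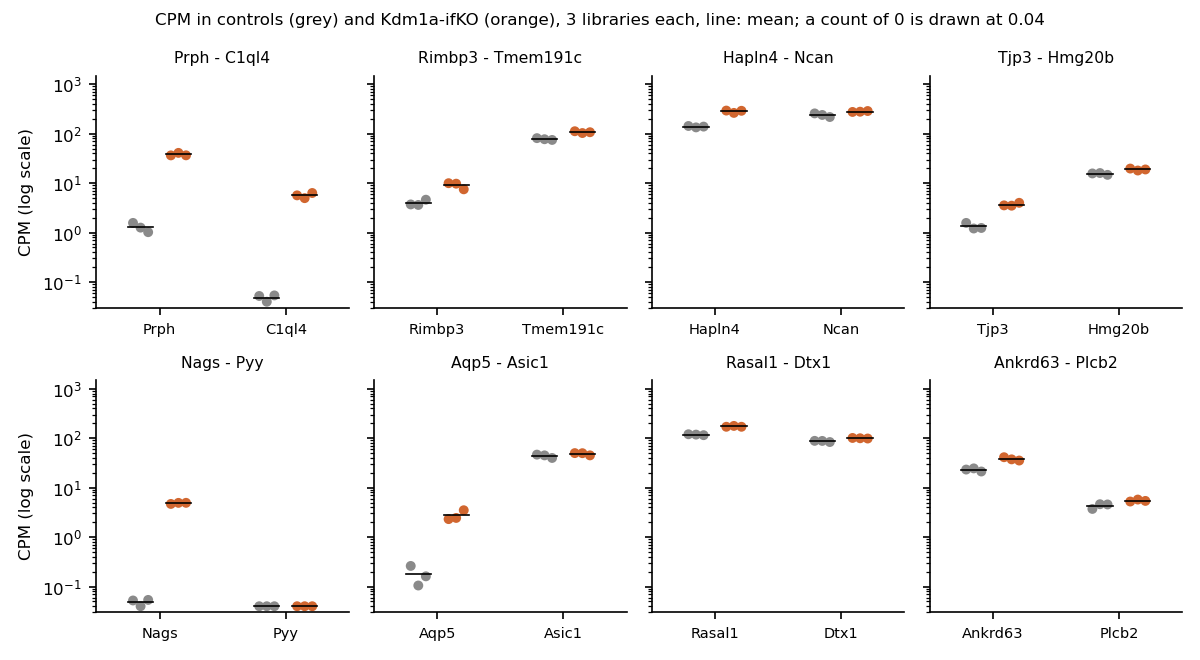
CPM (logarithmic axis) of both genes of 8 looped pairs in each of 3 control (grey) and 3 Kdm1a-ifKO (orange) libraries; lines are means, and a count of 0 is drawn at 0.04. Prph goes from 1.28 to 37.9 CPM and C1ql4 from 0.0353 to 5.65 CPM, Aqp5 from 0.176 to 2.75 CPM beside Asic1 at 43.8 and 48.2 CPM, and Nags from 0.0353 to 4.84 CPM beside Pyy without a count.

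In 5 further pairs both genes rose. Rasal1, a GTPase-activating protein of Ras, had 2294, 2257 and 2149 counts in controls and 3299, 3491 and 3309 in Kdm1a-ifKOs, giving a log2FC of 0.55 (edgeR adjusted p = 1.01e-05). It is joined to Dtx1, a ubiquitin ligase of the Notch pathway, which had a log2FC of 0.20 (edgeR adjusted p = 0.0257). Espn, the actin bundler espin, had a log2FC of 1.66 and its partner Rnf207 one of 0.98, with edgeR adjusted p = 6.24e-08 and 0.000314. Espn rose more than Rnf207 (limma adjusted p = 0.0313). The kinesin light chain gene Klc3 was looped to Nkpd1 with 7 PETs and to Apoe, 295 kb away, with 3 PETs, at log2FC 1.79, 1.46 and 0.30. Klc3 overlaps Ercc2 and Rnf207 overlaps Icmt, so their counts are uncertain. Klc3 rose more than Apoe (limma adjusted p = 0.00171). Apoe, the main apolipoprotein of astrocytes, stood at 2474 TPM in controls and Klc3 at 1.45 TPM. The glutathione transferase genes Gstm1 and Gstm6 (11 PETs) had log2FC values of 0.19 and 0.54 and are close copies, so their counts are uncertain. The calls of Dtx1 and Gstm1 were lost without control replicate 2 or any of the Kdm1a-ifKO libraries, with adjusted p-values up to 0.0974 and 0.142. That of Nkpd1 was lost without control replicate 1 or 2 or Kdm1a-ifKO replicate 1 or 3, with adjusted p-values up to 0.0846.

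The 7 looped genes that fell changed little. Sema7a, at the strongest loop, had 3005, 2820 and 2570 counts in controls and 2477, 2463 and 2384 in Kdm1a-ifKOs, giving a log2FC of -0.24 (standard error 0.0564, edgeR adjusted p = 0.0176). Its partner Cyp11a1 had a log2FC of -0.01, and both changes did not differ at the threshold (limma adjusted p = 0.554). Rac3 (207 PETs), a small GTPase, had a log2FC of -0.37, and the neurofilament gene Nefl one of -0.26, next to -0.10 for its partner Nefm (9 PETs), which overlaps it. Cntnap1, Gls2, Ints7 and Pcdhac2 had log2FC values from -0.34 to -0.18. These 7 were chosen for naming after their values were seen. Overlapping genes make the counts of Cntnap1, Gls2, Ints7 and Pcdhac2 uncertain. Nefl kept its call with any 1 library left out (edgeR adjusted p up to 0.0275), whereas Sema7a lost it without control replicate 1 or 2 or Kdm1a-ifKO replicate 1 or 3 (up to 0.0927) and Rac3 without any control or Kdm1a-ifKO replicate 1 or 3 (up to 0.132). Cntnap1 lost it without control replicate 1 or 2 or any Kdm1a-ifKO library (up to 0.125), and Ints7 without any control or Kdm1a-ifKO replicate 1 or 3 (up to 0.195). Gls2 lost it without control replicate 1 or 3 or Kdm1a-ifKO replicate 1 or 3 (up to 0.136), and Pcdhac2 without control replicate 1 or 2 or Kdm1a-ifKO replicate 2 or 3 (up to 0.142).

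Some of the genes that the study names for their expression or their loops were looked up. Of these Prph, C1ql4, Nags and Ankrd63 lay at promoter-to-promoter loops. Nags, the enzyme that makes the activator of the urea cycle, had 1, 0 and 1 counts in controls and 91, 97 and 96 in Kdm1a-ifKOs, a ratio of 138 with an exact 95% counting interval of 37.7 to 1141 (edgeR adjusted p = 8.91e-08). Its looped partners, the hormone genes Ppy and Pyy (93 PETs), held 1 and 0 counts over all 6 libraries, where a floor of 3 counts allows no fold. Nags overlaps the antisense gene Gm11586. Ankrd63 had 443, 467 and 394 counts in controls and 801, 735 and 687 in Kdm1a-ifKOs, giving a log2FC of 0.72 (standard error 0.0798, edgeR adjusted p = 6.56e-05). It is looped to Plcb2, a phospholipase C (55 PETs), whose log2FC was 0.34 (standard error 0.149, edgeR adjusted p = 0.175) although its groups did not overlap. It rose more than its weaker partners Inafm2 and Ccdc9b (limma adjusted p = 0.0176 and 0.0146). Spint1, Vps18, Ino80, Mixl1, Tmem30b, Bmp8a, Otop2, Tmc8, Tk1 and Slc16a3 were at no promoter-to-promoter loop.

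Of 20 listed genes for CTCF, cohesin and their regulators, 17 were tested and 2 fell (11.8%, against 3.15% of protein-coding genes). These were the cohesin regulator Pds5b (log2FC -0.36, edgeR adjusted p = 0.0199) and the zinc finger factor Yy1 (-0.27, edgeR adjusted p = 0.0205). The summed level of the list was 1211, 1230 and 1310 CPM in controls and 1195, 1176 and 1187 CPM in Kdm1a-ifKOs, every Kdm1a-ifKO library being below every control, with Maz the most abundant. The call of Pds5b was lost without Kdm1a-ifKO replicate 1 or 3 and that of Yy1 without control replicate 2 or Kdm1a-ifKO replicate 1 or 2, with adjusted p-values up to 0.071 and 0.0759. Ctcf, Pds5a and Maz lay at promoter-to-promoter loops themselves. Ctcf had 1565, 1633 and 1567 counts in controls and 1679, 1514 and 1678 in Kdm1a-ifKOs, with overlapping groups and a log2FC of -0.01 (standard error 0.0591, edgeR adjusted p = 0.916). It shared 3 PETs each with Atp6v0d1 and Ripor1.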

How the data were processed

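The authors made the deposited RNA-seq counts from single-end poly-A reads with cutadapt 1.18, HISAT2 2.1.0 on mm10 and HTSeq 0.11.1, without normalization. The strand setting is not given, so counts of overlapping genes are uncertain. ChIA-PIPE, run by the authors on mm10, gave loops and their PETs; kept were loops of at least 3 PETs inside a chromosome whose anchors both held a CTCF peak.

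Computed here were CPM (TMM), TPM by summed exon length and edgeR 4.0.16 quasi-likelihood tests in R 4.3.3 (filterByExpr, robust, genotype only, Benjamini-Hochberg over 16799 genes). DESeq2 1.42.0 was an alternative. Of 48795 counted genes, 48349 were found in GENCODE M21. Genes of a pair were compared with limma 3.58.1 (eBayes, robust) on the difference of their log2 CPM (prior count 1) per library, fitted over 93376 pairs of tested protein-coding genes with start sites 25 to 500 kb apart and adjusted over them. A pair is any gene at an anchor with any other gene at the opposite anchor. Gene and pair tests and the motif search were also run on simulated data with known answers. Intervals of ratios and shares cover counting error only.

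Named are the genes of the 10 strongest loops and the 5 with most partners. Also named are up to 20 called looped genes with a log2FC beyond 1 in either direction, up to 10 pairs with both genes called, some genes the study names for expression or loops, the loop machinery and called cell type markers. The loops, lists and tests were chosen with earlier results of these data known. Some genes that meet these rules are not reported here.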

Additional observations from a re-analysis of the deposited data

How the results depend on the processing

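How near a TSS must lie to an anchor sets the number of loops: 371 at 1 kb, 808 at 2.5 kb and 1559 at 5 kb from the anchor edge. At least 5 or 10 PETs leave 445 or 211 loops by construction. Distance from the anchor midpoint gives a median of 4 PETs. Looped genes at 5 TPM or more made up 70.5% at 1 kb, 66% at 5 kb, 71.3% by midpoint, 69.4% with all transcript starts, and 66.2% and 61.9% with at least 5 and 10 PETs, against 68.7%. Pairs with both genes at 5 TPM gave 48.3%, 43.5%, 49.5%, 47.9%, 44.9% and 41.9% in the same order, and 47.7% with the nearest TSS only, against 47.1%. With thresholds of 1 and 10 TPM in place of 5, the shares were 82.5% and 60.7% of genes and 69.1% and 37.5% of pairs.

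Looped genes that rose (112) numbered 55 at 1 kb (9.73%), 174 at 5 kb (10.3%), and 73 and 38 with at least 5 and 10 PETs (11% and 11.1%), against 10.7% in the chosen set and 6.73% of all protein-coding genes. Those with a log2FC over 1 (30) numbered 14 at 1 kb (2.48%), 17 by midpoint (2.22%) and 13 with at least 10 PETs (3.79%), against 2.86% and 1.48%. Looped genes that fell (7) numbered 13 at 5 kb (0.772%), 4 by midpoint (0.522%), 15 with all transcript starts (1.11%) and 4 with at least 10 PETs (1.17%), against 0.668% and 3.15%. Without the filter on low counts they numbered 22 (1.84%, against 5.72%). Then 1090 genes fell in all, against 473; the cause was not tested. DESeq2 called 98 looped genes higher (9.42%, against 5.93% of protein-coding genes) and 6 lower (0.577%, against 3.58%). In every setting the share of rising genes was above that of all protein-coding genes.

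With 1 library left out, 66 to 105 looped genes rose and 1 to 13 fell. Over all tested genes 646 to 876 rose, against 1014, and 137 to 584 fell. Looped pairs whose genes differed numbered 38 to 50, against 64. The cause was not tested. A variance trend with the level of the lower gene, chosen after seeing the data, gave 97 pairs.

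Replicate numbers were also fitted as a block. Residuals of same-numbered control and Kdm1a-ifKO libraries correlated at -0.0316, -0.0886 and -0.144, so the numbers do not pair samples, and the block costs degrees of freedom. It gave 84 looped genes higher (8.02%, against 5.31% of protein-coding genes) and 2 lower (0.191%, against 1.65%). There were 249 lower genes in all. With the block 30 looped pairs differed, for which no share over all pairs is given.

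Of 63 named genes refitted, 42 kept their call with any library left out, and none changed direction. DESeq2 gave no value for Nxnl1 and Mixl1.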
